A study of Mus musculus with 22 samples.

Results

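Aminoacyl-tRNA synthetases are the enzymes that join each amino acid to its tRNA. Their 36 genes were listed by what they encode and made up 36 of the 55335 genes in the table. Of these, 20 encode cytosolic enzymes or subunits and 16 encode mitochondrial enzymes. RNA-seq had been performed on 22 libraries of mouse embryos, each pooling 15 embryos. The embryos came from B6D2F1 females mated with B6D2F1 males. They were harvested at 43 to 44 h (2-cell embryos), 78 h (morulae) or 94 h (blastocysts) after hCG injection. Each stage had 4 control libraries, and the H2A.Z KD had 3 libraries of 2-cell embryos, 3 of morulae and 4 of blastocysts. For the KD, zygotes had received about 10 pl of a 20 µM siRNA mix against the histone variant H2A.Z, whereas the treatment of the control zygotes behind these libraries was not stated in the sources used here. Since each library pools embryos, differences in the KD between embryos are not seen in it. The values were FPKM, which count fragments relative to the length of the gene and the size of the library, and whose totals per library ran from 423915 to 722576; the depth in reads was unknown. The study's methods speak of repeated experiments, but the sources used here did not say which libraries came from separate collections, so the p-values measure the spread between these libraries. The KD comparisons and the steps between stages in control embryos share the control libraries, and the comparison of KD effects between stages uses the same libraries again.

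Most amino acids have a cytosolic and a separate mitochondrial synthetase, both encoded in the nucleus, whereas Gars and Kars each serve both compartments. Mitochondria have no glutaminyl-tRNA synthetase: glutamate is first loaded onto the tRNA for glutamine and is then converted by an amidotransferase. Several cytosolic enzymes sit together on a multisynthetase complex, and uncharged tRNA activates the kinase GCN2, through which the transcription factor ATF4 raises genes of amino acid supply.

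H2afz, the main gene of H2A.Z, stood at 1244, 1236, 905 and 1178 FPKM in control 2-cell embryos and 415, 139 and 112 FPKM in KD 2-cell embryos. It stood at 1158, 1336, 1511 and 1421 FPKM in control morulae and 30.3, 25.7 and 29.0 FPKM in KD morulae, and at 2656, 2430.5, 1945 and 2055 FPKM in control blastocysts and 64.2, 67.2, 53.2 and 57.6 FPKM in KD blastocysts. At each of the 3 stages all KD libraries were below all control libraries, so that no library went against its label. The log2 fold change, on the log2(FPKM + 1) scale used throughout, was -2.53 in 2-cell embryos (limma adjusted p = 0.543), -5.41 in morulae (limma adjusted p = 9.71e-08) and -5.19 in blastocysts (limma adjusted p = 3.63e-08); the fall in 2-cell embryos was thus not called at an adjusted p under 0.05. H2afv, which encodes the second H2A.Z protein, also fell by 2.93 in KD morulae and by 1.86 in KD blastocysts (limma adjusted p = 2.93e-06 and 7.95e-05).

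Markers of the stages followed the labels. The 6 markers of 2-cell embryos summed to 615, 544, 407 and 343 FPKM in control 2-cell embryos, with Tcstv3 the most abundant, and to at most 17.7 FPKM in any morula library and 29.3 FPKM in any blastocyst library. The 10 markers of morulae and blastocysts, led by Krt18 in blastocysts, summed to 1104, 1601, 1521 and 1112 FPKM in control blastocysts and 706, 881, 1039.5 and 786 FPKM in KD blastocysts. In that list every KD blastocyst library was below every control blastocyst library. Krt18 alone stood at 730, 992, 827 and 646 FPKM in control and 369, 461, 399 and 329 FPKM in KD blastocysts, and sums without it were not compared. Of the genes of that list, 8 were tested in blastocysts, 0 were higher and 1 was lower, the trophectoderm keratin Krt18, which fell by 1.02 (limma adjusted p = 0.00126), against 16.7% and 19.8% of all genes. The fold change was above 0 in 3 of these 8. In KD morulae 1 of 6 was lower, against 9.04% of all genes, the pluripotency factor Nanog, which fell by 2.23 (limma adjusted p = 0.00647); the list summed to 224, 223, 252 and 296 FPKM in controls and 121, 101 and 153 FPKM in KD morulae. The part of these markers in the synthetase results was not tested, and in libraries of whole embryos fewer cells of a type and less RNA per cell cannot be told apart.

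The 6 oocyte and maternal markers summed to 1012, 919, 839.8 and 755 FPKM in control and 986, 1049.6 and 799.5 FPKM in KD 2-cell embryos, mostly from Oosp1, and to at most 11.5 FPKM in any later library. Of the 8 markers of cumulus and granulosa cells, which surround the oocyte, Fshr and Ptx3 were listed at 0 in all 22 libraries and Amhr2 was the most abundant in each; the list summed to at most 18.9 FPKM. Among 2-cell markers, 2 of 3 tested were higher in KD blastocysts, against 16.7% of all genes, Tcstv3 by 2.01 and Zfp352 by 1.56 (limma adjusted p = 0.0145 and 0.00157), and 0 of 3 were called in KD morulae by limma, with 0 higher and 0 lower at an unadjusted p under 0.05. Both genes passed the filter, an FPKM of 1 or more in 3 or more libraries of the comparison, only with the KD blastocysts; without the filter Zfp352 was also called (0.0265 in limma), and 1 of the 6 2-cell markers was then higher. Leaving out any 1 library ended none of the calls of Krt18, Nanog, Tcstv3 and Zfp352, whereas without the filter on low values Nanog (limma adjusted p = 0.0719) and Tcstv3 (0.115) were not called. No oocyte or cumulus marker was called between KD and control embryos by limma at any of the 3 stages, while without the filter 1 oocyte marker was higher in KD blastocysts.

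In control embryos the 20 cytosolic genes together reached 240.4, 257, 353 and 355 FPKM in 2-cell embryos, 870.1, 811, 774 and 851 FPKM in morulae and 636, 857, 973 and 776 FPKM in blastocysts. The 16 mitochondrial genes together reached 95.9, 94.7, 87.4 and 74.3 FPKM in 2-cell embryos, 118, 107, 95.8 and 120.5 FPKM in morulae and 109, 139, 146 and 154 FPKM in blastocysts. The cytosolic sum was thus higher in every control morula and blastocyst library than in any 2-cell library. Of the mitochondrial sum in control 2-cell embryos, the phenylalanine gene Fars2 alone made up 75.6, 72.4, 48.3 and 45.5 FPKM. Without Fars2, an alternative chosen after seeing the data, the mitochondrial sums were 20.3, 22.3, 39.1 and 28.8 FPKM in control 2-cell embryos, 117, 106, 94.5 and 119 FPKM in control morulae and 104, 133, 139 and 149 FPKM in control blastocysts, so that every later library was above every 2-cell library here too. The ratio of the sums was 2.51, 2.71, 4.04 and 4.77 in control 2-cell embryos, 7.35, 7.59, 8.08 and 7.07 in control morulae and 5.86, 6.17, 6.67 and 5.03 in control blastocysts; without Fars2 the order of the first 2 stages turned, with 11.8, 11.5, 9.03 and 12.3 in 2-cell embryos and 7.42, 7.69, 8.19 and 7.14 in morulae. In KD morulae the cytosolic genes summed to 637, 609 and 697 FPKM and the mitochondrial genes to 71.5, 69.8 and 90.4 FPKM. In FPKM both sums were below all control morulae, but after the scaling between libraries used in the fits both overlapped the controls. In KD blastocysts the sums were 788, 812, 953 and 933 FPKM and 109, 109, 125 and 119.7 FPKM, which overlapped the control values, but the ratio of 7.22, 7.42, 7.65 and 7.79 was above that of every control blastocyst library, also without Fars2 (7.33, 7.60, 7.79 and 7.98 against 6.10, 6.45, 6.99 and 5.21). Much of the mitochondrial sum in blastocysts came from Rars2, at 57.7, 65.3, 58.1 and 58.1 FPKM in controls and 45.4, 45.7, 28.2 and 42.6 FPKM in KD embryos. With Rars2 taken out of the mitochondrial sums, the ratios overlapped between control and KD blastocysts, so the separation did not hold without this gene.

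**Figure D1:**
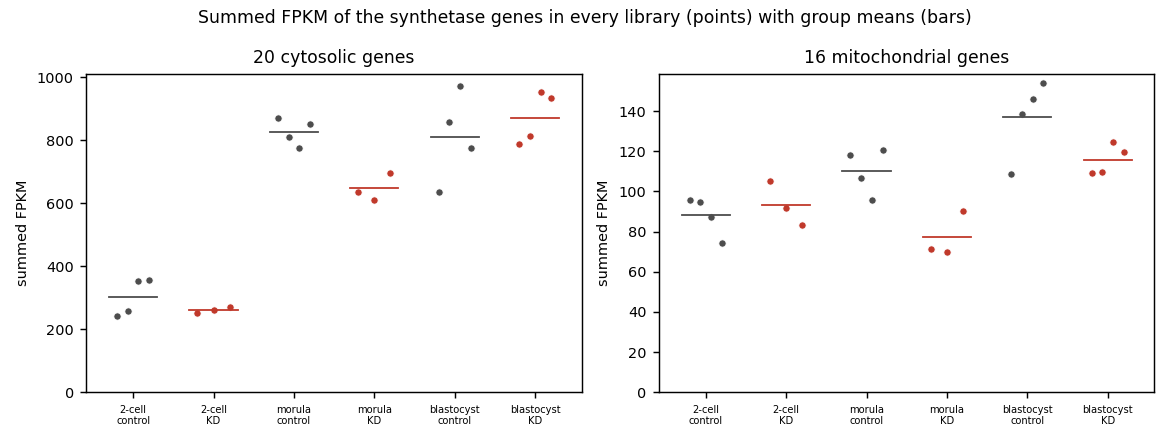
Summed FPKM (vertical axis) of the 20 cytosolic and the 16 mitochondrial synthetase genes in each library, by stage and condition (horizontal axis), with points for libraries and bars for group means. In KD morulae both sums lie below all 4 control morula libraries in these FPKM, but not after the scaling between libraries used in the fits.

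Levels differed widely between the genes, compared here per length. Rars, which charges tRNA with arginine, stood at 124, 126, 141 and 144 FPKM in control morulae and 124, 136, 159.7 and 136 FPKM in control blastocysts, the highest group mean of the 36 genes at both stages. Dars, for aspartate, reached 109, 124, 126 and 133 FPKM and Farsb, the beta subunit for phenylalanine, 99.7, 110.5, 93.0 and 117 FPKM in control morulae; these were the next 2 in both stages. In 2-cell embryos Rars was again first, at 53.9, 49.5, 70.1 and 88.6 FPKM, followed by Fars2, at 75.6, 72.4, 48.3 and 45.5 FPKM, and by Farsb, at 25.6, 21.9, 40.5 and 32.6 FPKM. The control libraries of Rars and Fars2 overlapped at that stage, so the order of these genes was within the spread. At the other end, Vars2 and Aars2, the mitochondrial genes for valine and alanine, had a mean under 1 FPKM in all 6 groups, with 0.382, 0.453, 0.249 and 0.776 FPKM and 0.239, 0.485, 0.119 and 0.224 FPKM in control blastocysts. They passed the filter on low values in no fit and were not tested, which left at most 34 members in a comparison. In control 2-cell embryos Vars, for cytosolic valine, lay as low as these, at 0.148, 0.0308, 0.0784 and 0.0613 FPKM, and the next lowest mean after Vars2 and Aars2 was that of Fars2 in control morulae, at 1.15, 1.39, 1.33 and 1.21 FPKM, and of Mars2 in control blastocysts, at 1.15, 1.29, 1.83 and 1.10 FPKM.

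From control 2-cell embryos to control morulae, 29 of 34 tested members rose and 4 fell (limma, adjusted p under 0.05), against 43% higher and 40.3% lower of all 13655 genes tested. The median log2 fold change was 1.70 for cytosolic and 0.90 for mitochondrial members and 0.10 for all genes. Rars2, for mitochondrial arginine, went from 1.72, 2.51, 2.55 and 2.78 FPKM to 31.3, 36.3, 29.2 and 49.4 FPKM, and the tryptophan gene Wars2 from 0.439, 0.652, 1.44 and 1.12 FPKM to 15.1, 15.6, 12.5 and 15.4 FPKM. Farsa, the alpha subunit for phenylalanine, went from 3.08, 3.00, 4.96 and 3.71 FPKM to 71.3, 50.5, 25.7 and 30.0 FPKM, and the leucine gene Lars from 0.667, 0.801, 0.662 and 0.614 FPKM to 11.7, 10.1, 8.46 and 9.83 FPKM. In these 4 genes every morula library was above every 2-cell library, and Lars and Wars2 passed the filter in this step only through the morulae. So did Cars, Vars, Iars2, Nars2, Pars2 and Tars2 among the risers; with no filter 28 of 36 members rose, against 7551 of all 37322 genes. The log2 fold changes were 3.44, 3.04, 3.17 and 2.67, with limma adjusted p of at most 1.85e-07, and without the filter of at most 3.34e-05.

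Fars2 moved the other way between these stages, from 75.6, 72.4, 48.3 and 45.5 FPKM in control 2-cell embryos to 1.15, 1.39, 1.33 and 1.21 FPKM in control morulae. The groups were far apart, and Fars2 fell by 4.71 on the log2 scale (SE 0.223, limma adjusted p = 2.94e-09). Iars, the cytosolic isoleucine gene, stood at 26.7, 34.1, 24.4 and 31.0 FPKM and then 11.2, 7.52, 9.36 and 8.29 FPKM, and fell by 1.58 (limma adjusted p = 3.86e-06). The mitochondrial methionine gene Mars2 fell by 0.97 (limma adjusted p = 0.000154), from 3.05, 3.08, 5.75 and 4.38 FPKM to 1.51, 1.65, 1.60 and 1.31 FPKM. Lars2, for mitochondrial leucine, fell by 0.61 (limma adjusted p = 0.0148), but the call was lost without control morula replicate 2 (-0.46, adjusted p = 0.0745) or 8 (-0.49, adjusted p = 0.0625), and in 1 fit over all libraries (adjusted p = 0.140). Lars2 stood at 5.05, 4.89, 6.89 and 3.90 FPKM in control 2-cell embryos and 4.89, 2.20, 3.37 and 2.12 FPKM in control morulae, and these groups overlapped. Scaling each library to the same FPKM total moved the median of all genes by -0.33 in this step, and 23 members were then higher and 4 lower. Over all 13655 genes 5024 were then higher and 6134 lower, in place of 5868 and 5506.

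From control morulae to control blastocysts, 4 of 34 tested members rose, against 27.6% of all 11849 genes tested, and 7 fell, against 28.8%. The risers were Fars2, Iars2, Nars2 and Rars2, 4 of 14 tested mitochondrial members (28.6%, near the share of all genes). Fars2 went from 1.15, 1.39, 1.33 and 1.21 FPKM to 4.32, 5.91, 6.70 and 5.22 FPKM, and Iars2, for isoleucine, from 2.76, 1.24, 1.80 and 1.65 FPKM to 4.58, 5.06, 5.35 and 5.66 FPKM, with no overlap between the stages in either gene. Fars2 rose by 1.44 and Iars2 by 1.06 (limma adjusted p = 7.53e-06 and 0.000157). Nars2, for asparagine, rose by 0.76 (limma adjusted p = 0.000789) and Rars2 by 0.64 (limma adjusted p = 0.0157); without control morula replicate 7 Rars2 was not called (0.54, adjusted p = 0.0509), nor was it without the filter (0.0553). Farsa went down again, from 71.3, 50.5, 25.7 and 30.0 FPKM to 7.11, 11.0, 15.1 and 8.86 FPKM, and Wars2 from 15.1, 15.6, 12.5 and 15.4 FPKM to 3.96, 5.56, 7.03 and 5.25 FPKM. All blastocyst libraries of both genes were below all morula libraries. Farsa fell by 1.99, Wars2 by 1.37, the tyrosine gene Yars by 1.24 and the mitochondrial cysteine gene Cars2 by 1.17, with limma adjusted p of at most 0.00153. The median of the tested members was -0.04, and it was 0.04 with FPKM as deposited, a turn of sign near 0. Without control blastocyst replicate 1 the members called higher numbered 7, as in 1 fit over all libraries (7).

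In 2-cell embryos, 26 of 36 members passed the filter, and limma called 0 higher and 0 lower in KD embryos, as it did among all 12160 genes tested (0% higher and 0% lower). The targeted gene H2afz was itself not called in this fit, so the lack of calls does not show a lack of change. At an unadjusted p under 0.05, 0 members were higher and 2 lower, Hars and Cars2, against 2.89% and 2.87% of all genes. Hars, the cytosolic histidine gene, stood at 10.4, 11.2, 17.0 and 16.9 FPKM in control 2-cell embryos and 6.12, 9.97 and 7.19 FPKM in KD 2-cell embryos, every KD library being below every control library. Cars2 stood at 2.45, 1.84, 4.93 and 2.85 FPKM in control 2-cell embryos and 1.17, 2.06 and 1.40 FPKM in KD 2-cell embryos, and its groups overlapped. The log2 fold changes were -0.70 (95% interval -1.16 to -0.23) and -0.57 (-1.11 to -0.03), with limma adjusted p of 0.828 and 0.828. The median of the tested members was -0.12, and of all genes 0.00.

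In morulae, 0 of 34 tested members were higher in KD embryos by limma, against 4.23% of all 10989 genes tested, and 7 were lower, against 9.04%. At an unadjusted p under 0.05, 0 were higher and 12 lower, against 12.8% and 17.7% of all genes. The fold change was below 0 in 26 of the 34, with a median of -0.34, while the median of all genes was 0.02. The cytosolic members had a median of -0.34 and the mitochondrial members one of -0.33. The called genes were Hars2, Tars2 and Pars2, which serve mitochondria, and Wars, Hars, Lars and Qars, which serve the cytosol. Over all genes the split was 465 higher and 993 lower; with FPKM as deposited it was 281 and 1553, and after scaling to equal totals 240 and 1787, with 10 and 14 members lower. These scalings moved the median of all genes by -0.10 and -0.16; relative to it the members' median was -0.36 as fitted, -0.38 as deposited and -0.38 at equal totals.

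Hars2, the mitochondrial histidine gene, stood at 9.73, 8.32, 11.0 and 14.3 FPKM in control morulae and 2.92, 2.90 and 4.82 FPKM in KD morulae. Tars2, for mitochondrial threonine, stood at 8.97, 4.42, 6.13 and 7.84 FPKM in control morulae and 2.19, 2.64 and 1.75 FPKM in KD morulae. Both genes were lower in every KD library than in any control library. Hars2 fell by 1.27 (95% interval -1.80 to -0.74, limma adjusted p = 0.00942) and Tars2 by 1.17 (-1.63 to -0.70, limma adjusted p = 0.00794), the members with a change above 1 on the log2 scale. Pars2, for mitochondrial proline, stood at 2.06, 2.17, 1.20 and 1.40 FPKM in control morulae and 0.324, 0.359 and 0.950 FPKM in KD morulae, and fell by 0.74 (limma adjusted p = 0.0340); it passed the filter only through the controls and was not called without it (0.139). Wars, the cytosolic tryptophan gene, stood at 16.1, 11.0, 11.4 and 14.3 FPKM in control morulae and 5.39, 4.81 and 7.17 FPKM in KD morulae. The groups of Wars did not overlap, and it fell by 0.95 (-1.36 to -0.54, limma adjusted p = 0.0106).

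Hars stood at 32.1, 23.8, 30.5 and 30.3 FPKM in control morulae and 15.5, 15.1 and 20.8 FPKM in KD morulae, and Lars at 11.7, 10.1, 8.46 and 9.83 FPKM in control morulae and 6.14, 5.46 and 5.30 FPKM in KD morulae. Qars, which charges glutamine tRNA in the cytosol, stood at 54.1, 50.0, 40.2 and 42.3 FPKM in control morulae and 34.2, 27.1 and 24.3 FPKM in KD morulae. All 3 genes had every KD library below every control library. Hars fell by 0.62, Lars by 0.62 and Qars by 0.57 (limma adjusted p = 0.0454, 0.0215 and 0.0309). Most of these calls changed when 1 library was left out. The call of Wars was lost without KD replicate 1 or 2 (adjusted p up to 0.0533), that of Hars without control replicate 1, 7 or 8 or KD replicate 1 or 2 (up to 0.169), and that of Pars2 without control replicate 1, 2 or 8 or KD replicate 1 or 2 (up to 0.134). Those of Lars and Qars were lost without control replicate 2 or 8 or any 1 of the 3 KD replicates (up to 0.0868 and 0.122). In these limma fits the fold changes stayed between -0.50 and -1.12. The number of members called lower was 4 without control replicate 2, 3 without control replicate 8, and 2 without KD replicate 1 or 2. In 1 limma fit over all 22 libraries Pars2, Lars and Qars were not called (adjusted p = 0.134, 0.0501 and 0.110). With no filter on low values, 32900 genes were tested and only Lars of the 7 was called, the others having adjusted p between 0.0566 and 0.139.

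**Figure D2:**
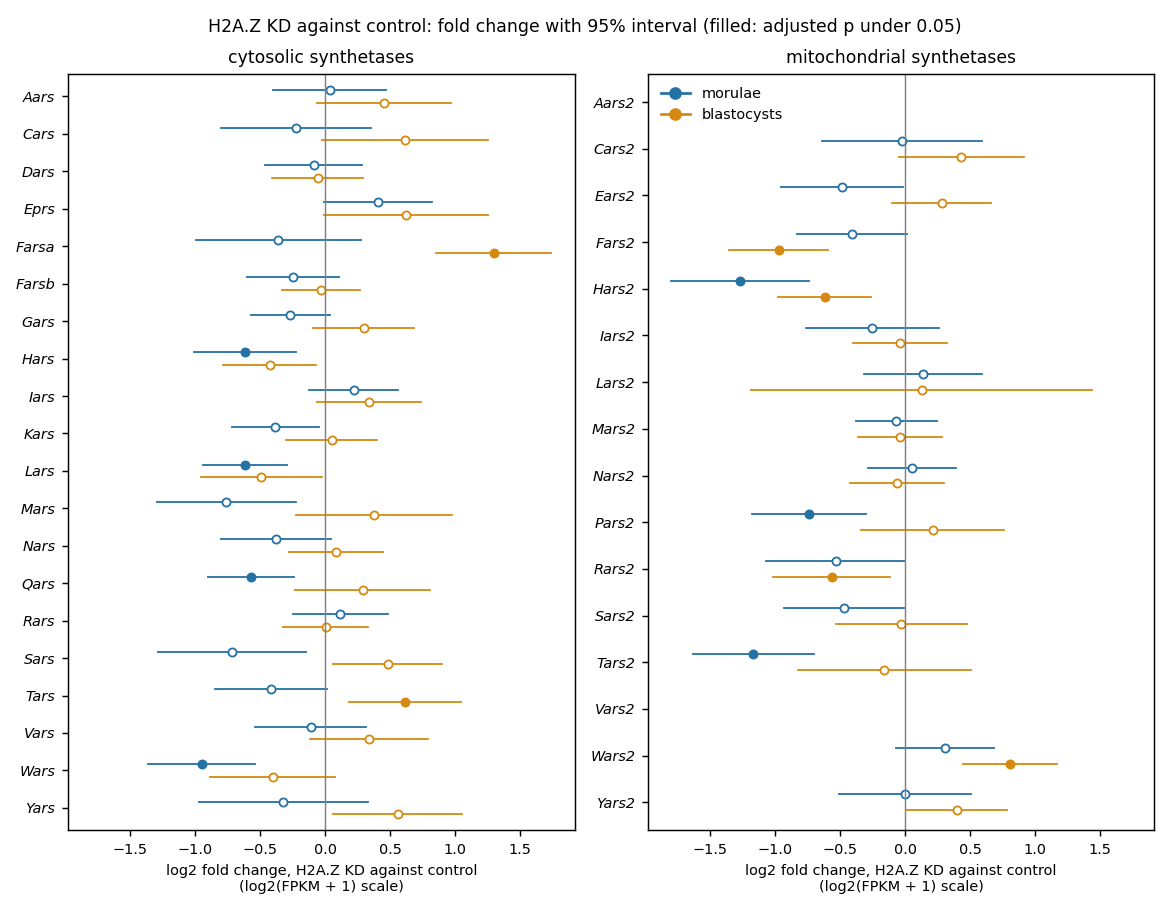
Log2 fold change of KD against control, on the log2(FPKM + 1) scale (horizontal axis), for each tested member (vertical axis) in morulae and blastocysts, with 95% intervals as lines and filled points at limma adjusted p under 0.05. Filled points in morulae lie below 0, and those in blastocysts lie on both sides.

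In blastocysts, 3 of 34 tested members were higher in KD embryos, against 16.7% of all 11828 genes tested, and 3 were lower, against 19.8%; both shares of the members were 8.82%. With low and high replicate numbers taken as batches 6 members were higher, beside 2069 of all 11828 genes. In 1 fit over all libraries 5 members were lower, beside 2741 of all 15697 genes. The median was 0.32 for cytosolic and -0.03 for mitochondrial members, and 0.00 for all genes. Of the cytosolic members 15 of 20 had a fold change above 0, and of the mitochondrial members 6 of 14. Farsa stood at 7.11, 11.0, 15.1 and 8.86 FPKM in control blastocysts and 22.3, 19.9, 33.1 and 32.2 FPKM in KD blastocysts. Every KD library of Farsa was above every control library, and it rose by 1.30 (95% interval 0.85 to 1.74, limma adjusted p = 0.000546). Wars2 stood at 3.96, 5.56, 7.03 and 5.25 FPKM in control blastocysts and 9.75, 8.48, 11.3 and 11.0 FPKM in KD blastocysts, again without overlap, and rose by 0.81 (0.45 to 1.17, limma adjusted p = 0.00279). Tars, the cytosolic threonine gene, stood at 11.0, 19.1, 24.9 and 18.5 FPKM in control blastocysts and 21.8, 24.6, 35.6 and 29.5 FPKM in KD blastocysts. Its FPKM overlapped between the groups, and it rose by 0.61 (0.18 to 1.04, limma adjusted p = 0.0288). The call of Tars was lost without control replicate 1, 4 or 6 or KD replicate 5 or 6, with log2 fold changes of 0.44 to 0.63 and adjusted p of 0.0568 to 0.0717, and was also lost with FPKM as deposited (limma adjusted p = 0.0657), at equal totals (0.0558) and without the filter (0.0860).

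The members called lower in KD blastocysts were 3 of 14 tested mitochondrial members (21.4%, beside 19.8% of all genes). Fars2 stood at 4.32, 5.91, 6.70 and 5.22 FPKM in control blastocysts and 1.61, 2.50, 2.30 and 2.85 FPKM in KD blastocysts. Hars2 stood at 9.09, 11.3, 12.3 and 10.4 FPKM in control blastocysts and 6.60, 7.62, 6.57 and 5.64 FPKM in KD blastocysts, and Rars2 at 57.7, 65.3, 58.1 and 58.1 FPKM in control blastocysts and 45.4, 45.7, 28.2 and 42.6 FPKM in KD blastocysts. Fars2 and Hars2 had every KD library below every control library, as did Rars2. Fars2 fell by 0.97 (-1.35 to -0.59, limma adjusted p = 0.00125), Hars2 by 0.62 (-0.98 to -0.26, 0.0114) and Rars2 by 0.57 (-1.01 to -0.12, 0.0480). The calls of Farsa, Wars2, Fars2 and Hars2 held in each of the 8 limma fits that left out 1 library, with adjusted p of at most 0.0431. The call of Rars2 was lost without any 1 of the 4 control replicates or KD replicate 5 or 6 (adjusted p up to 0.102); without KD replicate 5 its log2 fold change was -0.35. It was also lost with a pseudocount of 0.1 (limma adjusted p = 0.0510) and without the filter (0.140). Without control replicate 5, 5 members were called higher.

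The difference between the KD effects of the 2 later stages was tested as an interaction, the effect in blastocysts minus that in morulae. Its libraries were scaled together in a fit of their own, so that a difference need not equal that of the effects fitted within each stage. It was higher in 3 of 34 tested members, against 5.43% of all 12727 genes, and lower in 0, against 6.32%. At an unadjusted p under 0.05, limma had 11 higher and 1 lower, against 13.2% and 14.2% of all genes. The median difference was 0.42, and -0.01 over all genes. Farsa had a KD effect of -0.36 in morulae and 1.30 in blastocysts, a difference of 1.62 (95% interval 0.84 to 2.39, limma adjusted p = 0.00913). Sars, the cytosolic serine gene, stood at 20.0, 19.1, 17.1 and 19.2 FPKM in control morulae and 7.49, 7.99 and 16.8 FPKM in KD morulae, and at 14.0, 22.4, 31.9 and 21.7 FPKM in control blastocysts and 24.9, 27.3, 38.3 and 32.8 FPKM in KD blastocysts. In FPKM every KD morula library of Sars was below every control morula library, but after the scaling used in the fits these groups overlapped. The blastocyst groups overlapped as well. For Sars the effects of -0.72 and 0.48 differed by 1.16 (0.46 to 1.87, limma adjusted p = 0.0318). For Tars the effects were -0.42 and 0.61, and they differed by 0.99 (0.39 to 1.59, limma adjusted p = 0.0324).

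Farsa kept its call in the interaction in each of the 15 limma fits with 1 library left out (adjusted p up to 0.0298). Sars was not called without control morula replicate 2 or 8, KD morula replicate 1 or 2, control blastocyst replicate 1, 4 or 6, or KD blastocyst replicate 5 or 6 (0.94 to 1.17, adjusted p 0.0520 to 0.0968 in limma). Tars was not called without control morula replicate 7 or 8, KD morula replicate 1 or 2, control blastocyst replicate 1, or KD blastocyst replicate 5 or 6 (0.82 to 1.00, adjusted p 0.0533 to 0.0973). Without the filter on low values Sars and Tars were not called (limma adjusted p = 0.110 and 0.0955). The members called numbered 1 without control morula replicate 8, KD morula replicate 1 or 2, control blastocyst replicate 1 or KD blastocyst replicate 5 or 6, and 2 without control morula replicate 2 or 7 or control blastocyst replicate 4 or 6. They numbered 5 without KD morula replicate 6 and 7 without control blastocyst replicate 5. Over all genes the interaction was higher in 691 and lower in 804, and at equal totals in 1287 and 468 (6 members higher), with a median moved by 0.28; with FPKM as deposited it moved by 0.12. Relative to the median of all genes, the members' median was 0.42 as fitted, 0.44 as deposited and 0.46 at equal totals.

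Within KD embryos, 16 of 34 tested members were higher in blastocysts than in morulae, against 19.2% of all 11370 genes, and 1 was lower, against 18.2%. The member called lower was Wars2, which fell by 0.87 (limma adjusted p = 0.00313); in control embryos it fell by 1.37 over the same step. The median of the members was 0.48 in KD embryos and -0.04 in control embryos; these 2 steps share no library. Among the risers, named after their values were seen, were the cytosolic methionine gene Mars (1.39, against 0.24 in controls), Sars (1.32, against 0.11) and the cysteine gene Cars (1.17, against 0.33). The interaction, which compares these steps, called Sars but not Mars or Cars. Mars stood at 8.68, 9.24 and 15.2 FPKM in KD morulae and 31.1, 28.0, 55.2 and 27.5 FPKM in KD blastocysts, and the stages did not overlap. The count of risers was 9 without KD morula replicate 1 and 8 without replicate 2, and the count of fallers was 2 without KD morula replicate 1 or 6 or KD blastocyst replicate 1 or 6. Of the 16, Fars2, Iars2 and Pars2 passed the filter only through the KD blastocysts; with no filter 8 of 36 members were called higher in limma, against 1746 of all 33797 genes. Over all genes 2186 were higher and 2073 lower, but with FPKM as deposited 2824 and 1368, and at equal totals 2686 and 1383, with medians moved by 0.16 and 0.15. Relative to the median of all genes the members' median was 0.51 as fitted, 0.53 as deposited and 0.54 at equal totals.

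Genes for the same amino acid are given together here. The cytosolic phenylalanine enzyme is built from alpha subunits encoded by Farsa and beta subunits encoded by Farsb. Farsb stood at 99.7, 110.5, 93.0 and 117 FPKM in control morulae and 84.2, 72.6 and 85.6 FPKM in KD morulae, and at 99.1, 127, 134 and 118 FPKM in control blastocysts and 108, 112, 119.5 and 124 FPKM in KD blastocysts, with log2 fold changes of -0.25 and -0.03 that were not called (limma adjusted p = 0.317 and 0.888). The ratio of Farsa to Farsb FPKM was 0.120, 0.137, 0.123 and 0.114 in control 2-cell embryos, 0.715, 0.458, 0.276 and 0.256 in control morulae and 0.0717, 0.0865, 0.112 and 0.0753 in control blastocysts. It was 0.428, 0.431 and 0.252 in KD morulae and 0.206, 0.178, 0.277 and 0.260 in KD blastocysts. The ratio was thus higher in every KD blastocyst library than in any control blastocyst library, while the morula groups overlapped; this ratio was not tested. Fars2, whose level in control embryos was highest at the 2-cell stage, was lower in KD blastocysts, so that the cytosolic Farsa and the mitochondrial Fars2 moved in opposite directions there.

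For tryptophan, the cytosolic Wars had log2 fold changes of -0.95 in KD morulae and -0.41 in KD blastocysts, the latter not called (limma adjusted p = 0.173). The mitochondrial Wars2 had 0.31, not called (limma adjusted p = 0.251), and 0.81. For threonine, Tars had -0.42 (limma adjusted p = 0.178) and 0.61, and Tars2 had -1.17 and -0.16 (limma adjusted p = 0.719). Tars2 in blastocysts ran from 3.49 to 14.2 FPKM in controls, a spread that held all 4 KD libraries. For histidine both genes had values below 0: Hars -0.62 and -0.43, Hars2 -1.27 and -0.62, of which Hars in blastocysts was not called (limma adjusted p = 0.0609). Hars stood there at 30.2, 37.9, 49.1 and 42.1 FPKM in control blastocysts and 23.4, 32.1, 29.4 and 31.2 FPKM in KD blastocysts, and the groups overlapped. The difference between the stages was not called for Hars2 (0.63, limma adjusted p = 0.166), Tars2 (0.98, adjusted p = 0.131), Wars (0.52, 0.288) or Wars2 (0.46, 0.198).

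**Figure D3:**
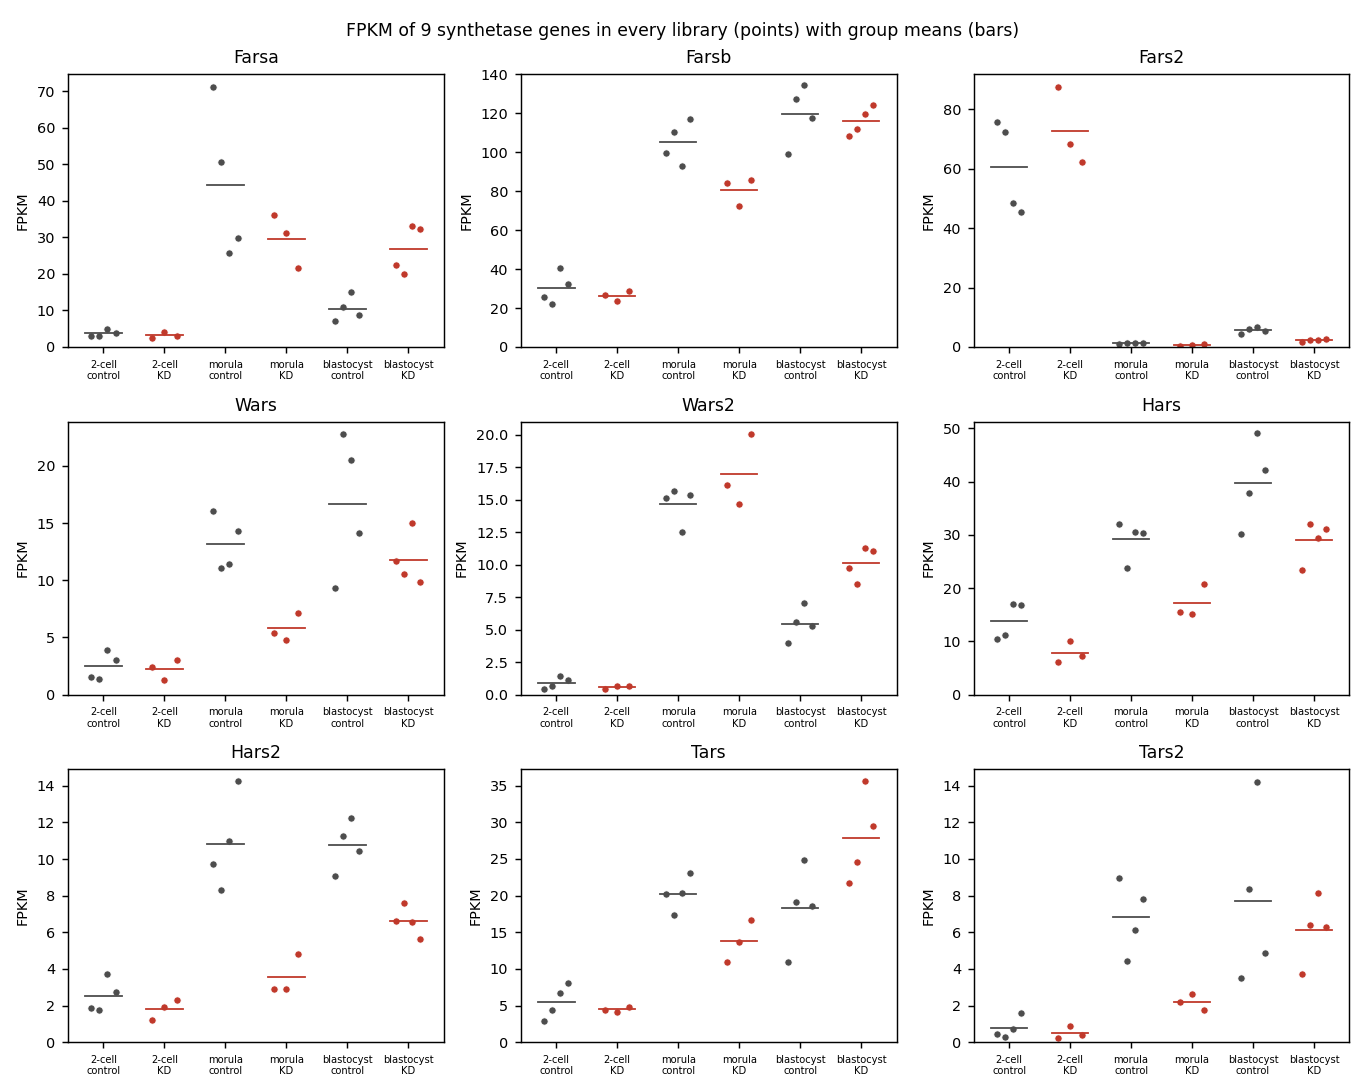
FPKM (vertical axis) of 9 synthetase genes for phenylalanine, tryptophan, histidine and threonine in each of the 22 libraries, by stage and condition (horizontal axis), with points for libraries and bars for group means. Farsa and Wars2 lie above the controls in KD blastocysts, and Hars2 and Tars2 lie below them in KD morulae.

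Some members start close to another gene on the opposite strand. Hars and Hars2 lie head to head on chromosome 18 (GRCm38), Hars at chr18:36766528-36783205 on the minus strand and Hars2 at chr18:36783008-36792562 on the plus strand, and they overlap by 198 bases. Rars2 starts 13 bases from Orc3, a subunit of the origin recognition complex, Sars2 172 bases from the mitochondrial ribosomal gene Mrps12, Yars 33 bases from S100pbp and Kars 75 bases from Terf2ip. Fars2 and Lyrm4, an iron-sulphur cluster protein, overlap by 115 bases, and Ears2 and Ubfd1 by 89 bases. Orc3 stood at 37.9, 41.6, 39.1 and 36.7 FPKM in control blastocysts and 11.6, 22.2, 12.1 and 15.2 FPKM in KD blastocysts, with no overlap. Orc3 fell by 1.33 in KD blastocysts and by 0.74 in KD morulae (limma adjusted p = 0.000635 and 0.0289), beside -0.57 and -0.53 for Rars2. Lyrm4 fell by 0.81 in KD blastocysts (limma adjusted p = 0.0276), beside -0.97 for Fars2, and Mrps12 fell by 0.85 in KD morulae (limma adjusted p = 0.0243), beside -0.47 for Sars2. Ubfd1 rose by 1.14 in KD blastocysts (limma adjusted p = 0.00104), beside 0.28 for Ears2. The call of Lyrm4 was lost without control replicate 1 or 4 or KD replicate 5 or 6 (adjusted p up to 0.0731), that of Mrps12 without control replicate 2, 7 or 8 or KD replicate 1 or 2 (adjusted p up to 0.111) and that of Orc3 in morulae without control replicate 2 or 8 or KD replicate 1, 2 or 6 (adjusted p up to 0.0974); without the filter on low values limma gave adjusted p of 0.127, 0.119 and 0.113. S100pbp and Terf2ip were not called at either stage (limma adjusted p of at least 0.0913), and each gene of a pair was fitted on its own. Reads in bases shared by both strands cannot be told apart without strand, and this applies also to Mars with Ddit3 (68 bases), Cars2 with Naxd (984 bases), Iars2 with Rab3gap2 (2034 bases), Lars with the pseudogene Rps19-ps4 (438 bases), Yars with C77080 (30 bases) and Vars2 with Gm20483 (4734 bases). Aars and Exosc6 (1326 bases) and Farsa and Mir7069 (62 bases) overlap on the same strand, where strand would not separate the reads either.

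Of the 20 cytosolic members, 8 sit on the multisynthetase complex: Dars, Eprs, Iars, Kars, Lars, Mars, Qars and Rars. In KD morulae 2 of these 8 and 2 of the 12 others were lower, against 9.04% of all genes, with medians of -0.24 and -0.34. In KD blastocysts 0 of the 8 and 2 of the 12 were higher by limma, against 16.7% of all genes, with medians of 0.17 and 0.39; at an unadjusted p under 0.05 the complex had 0 higher and 1 lower. The complex is held together by 3 scaffold proteins, encoded by Aimp1, Aimp2 and Eef1e1, which summed to 384, 413, 418 and 439.5 FPKM in control and 344, 344 and 374 FPKM in KD morulae, and to 456, 406, 396 and 410.3 FPKM in control and 378, 373, 281 and 353 FPKM in KD blastocysts. In FPKM every KD library was below every control library of its stage in this sum. After the scaling between libraries used in the fits, the sums of control and KD embryos overlapped at both stages. Eef1e1 was the most abundant gene of the sum. The groups of Eef1e1 and of Aimp2 overlapped at both stages, whereas those of Aimp1 did not. Of the 3 genes 1 was lower in KD morulae and 1 in KD blastocysts, both times Aimp1, against 9.04% and 19.8% of all genes. Aimp1 stood at 73.3, 77.2, 88.3 and 91.2 FPKM in control morulae and 47.6, 40.1 and 56.8 FPKM in KD morulae, and at 155, 119, 133 and 144 FPKM in control blastocysts and 99.5, 88.0, 73.9 and 88.3 FPKM in KD blastocysts. It fell by 0.65 in morulae and by 0.65 in blastocysts (limma adjusted p = 0.0449 and 0.0178). The call in morulae was lost without control replicate 2, 7 or 8 or KD replicate 1 or 2 (adjusted p up to 0.181), without the filter (0.155) and in a limma fit over all 22 libraries (0.135); that in blastocysts was lost only without the filter (0.0620). Aimp2 had 0.03 and -0.12 and Eef1e1 0.00 and -0.10, not called (limma adjusted p of at least 0.651).

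In mitochondria, 6 further genes act beside the synthetases: Qrsl1, Gatb and Gatc encode the amidotransferase, Mtfmt formylates the initiator methionine on its tRNA, and Tufm and Tsfm are elongation factors. In control embryos 6 of 6 rose from the 2-cell stage to the morula, against 43% of all genes, and Gatb passed the filter there only through the morulae. In KD morulae 0 were higher and 4 of 6 were lower, and in KD blastocysts 0 were higher and 4 of 6 were lower, against 9.04% and 19.8% of all genes; at an unadjusted p under 0.05, 0 and 0 were higher in limma. Qrsl1 stood at 16.2, 10.9, 12.3 and 12.4 FPKM in control morulae and 5.18, 5.73 and 8.28 FPKM in KD morulae, and at 20.2, 24.1, 24.2 and 24.5 FPKM in control blastocysts and 14.1, 12.8, 12.4 and 14.6 FPKM in KD blastocysts. The KD libraries of Qrsl1 were below the controls of their stage in both cases. It fell by 0.81 and 0.73 (limma adjusted p = 0.0215 and 0.00299), and Mtfmt fell by 0.79 and 0.57 (0.0148 and 0.0158). Tsfm and Tufm fell in morulae by 0.60 and 0.58 (limma adjusted p = 0.0244 and 0.0362), and Gatb and Gatc fell in blastocysts by 0.65 and 0.61 (0.0225 and 0.0107). In morulae the call of Qrsl1 was lost without control replicate 8 or KD replicate 1 or 2 (adjusted p up to 0.0914), that of Mtfmt without KD replicate 1 (adjusted p = 0.0635), and those of Tufm and Tsfm without control replicate 7 or 8 or KD replicate 1 or 2 (up to 0.147 and 0.108). In blastocysts that of Gatb was lost without control replicate 4 or 5 or KD replicate 5 or 6 (adjusted p up to 0.0767) and that of Mtfmt without control replicate 4 or KD replicate 6 (adjusted p up to 0.0537). Without the filter Qrsl1, Mtfmt and Tufm in morulae (0.0901, 0.0549 and 0.0967 in limma) and Gatb in blastocysts (0.0612) were not called, nor were Tufm and Tsfm in the fit over all libraries (0.380 and 0.0843) or Gatb, Gatc and Mtfmt in blastocysts at equal totals (0.0607, 0.0572 and 0.0558). The list summed to 106, 79.5, 79.6 and 85.0 FPKM in control and 48.5, 46.6 and 52.8 FPKM in KD morulae, without overlap, whereas the blastocyst sums, 75.5, 105, 110.0 and 98.7 FPKM and 70.5, 78.6, 92.9 and 73.8 FPKM, overlapped. Ears2, which loads the glutamate that the amidotransferase converts, had -0.49 and 0.28 and was not called (limma adjusted p = 0.151 and 0.230).

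The integrated stress response is the ATF4 programme, and 28 of its genes were followed. In KD blastocysts 9 of 19 tested were higher and 2 lower, against 16.7% and 19.8% of all genes; in KD morulae 2 of 19 were higher and 1 lower, against 4.23% and 9.04%. Of the 9 higher in KD blastocysts, Trib3, Sesn2, Atf3, Nupr1 and Slc7a5 passed the filter only through the KD libraries. Of the 2 lower, Aldh18a1 passed it only through the control libraries. With no filter, all 28 were tested, and 12 were higher and 1 lower in KD blastocysts, against 1798 and 2067 of all 34540 genes. The 28 genes summed to 376, 550.1, 569 and 498 FPKM in control blastocysts and 914, 752, 928 and 835 FPKM in KD blastocysts, where every KD library was above every control library. The sum rested largely on Eif4ebp1 and Psat1, at 335 and 243 of the 914 FPKM in KD blastocyst replicate 1. Sums without these genes were not compared. In morulae the sums were 1063, 911, 838 and 932 FPKM and 901, 834 and 944 FPKM, which overlapped. Trib3, a pseudokinase induced by ATF4, stood at 0.439, 0.530, 0.890 and 0.422 FPKM in control blastocysts and 1.34, 3.33, 5.61 and 2.83 FPKM in KD blastocysts. Sesn2, a stress-induced inhibitor of mTORC1, stood at 0.175, 0.458, 0.815 and 1.03 FPKM in control blastocysts and 2.82, 2.80, 6.94 and 4.44 FPKM in KD blastocysts. Neither gene had overlapping groups in blastocysts. Sesn2 rose by 1.66 and Trib3 by 1.35 (limma adjusted p = 0.000236 and 0.00121, and 0.00708 and 0.0187 without the filter). The transcription regulator Nupr1 rose by 1.26 and Ppp1r15a, a subunit of the phosphatase that acts on eIF2 alpha, by 1.26 (limma adjusted p = 0.00192 and 0.00111, and 0.0269 and 0.0133 without the filter).

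Atf4 itself stood at 24.7, 38.2, 53.0 and 35.3 FPKM in control blastocysts and 50.2, 39.5, 103 and 50.3 FPKM in KD blastocysts, and its log2 fold change of 0.63 was not called (limma adjusted p = 0.0639). Ddit3, the transcription factor CHOP, had 0.25 (limma adjusted p = 0.228) and Asns, asparagine synthetase, 0.31 (limma adjusted p = 0.322), so these 3 genes of the programme were not called. In KD morulae Atf4 had 0.06, Asns 0.11, Trib3 0.16 and Ddit3 0.32, none of them called in limma (adjusted p of at least 0.385). The genes called in KD morulae were Cebpg, a partner of ATF4, which rose by 1.09, Eif4ebp1, a repressor of cap-dependent translation, which rose by 0.67, and Shmt2, a mitochondrial enzyme of serine breakdown, which fell by 1.02 (limma adjusted p = 0.0158, 0.0113 and 0.00713). The difference between the stages was higher in 4 of 21 tested, against 5.43% of all genes: Trib3 (1.14), Atf3 (1.10), the serine synthesis gene Psat1 (1.27) and Ppp1r15a (1.24), with limma adjusted p of at most 0.0269. It was lower in 0, with 2 at an unadjusted p under 0.05. Atf3 passed the filter only through the KD blastocysts; with no filter 3 of 28 were higher, Atf3 among them (adjusted p = 0.00215), against 398 of all 37157 genes. Without KD replicate 2 (adjusted p = 0.0593) or without the filter (0.0939) Cebpg was not called in limma, and the difference for Trib3 was not called without morula control replicate 8 or morula KD replicate 2 or 6 or blastocyst control replicate 1 (adjusted p up to 0.0686), without the filter (0.0950) or in the fit over all libraries (0.0627). Psat1 stood at 352, 337, 316 and 379 FPKM in control morulae and 273, 237 and 282 FPKM in KD morulae, and at 84.0, 127, 125 and 133 FPKM in control blastocysts and 243, 223, 257 and 233 FPKM in KD blastocysts. Psat1 was thus lower in control blastocysts than in any other group of these 2 stages. Of the kinases of eIF2 alpha and the GCN2 activator Gcn1, 5 genes in the table, 1 in morulae and 2 in blastocysts passed the filter, and limma called 0 of them, with 0 higher and 0 lower in morulae and 0 and 0 in blastocysts at an unadjusted p under 0.05; the list summed to at most 8.21 FPKM after the 2-cell stage.

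Promoters of 27 of the 36 members, 250 bases before to 50 bases after the start, were matched in RefSeq sequence on GRCm38.p6. They were searched for TGATGNAA, the core of the element bound by ATF4 with C/EBP proteins, and for its reverse complement TTNCATCA. The letters were found in 5 of the 27 (18.5%) and in 1304 of all 32851 promoters (3.97%). The 5 were the cytosolic genes Aars, with 2 copies, Gars, Iars, Tars and Yars. In KD blastocysts their log2 fold changes were 0.45, 0.30, 0.34, 0.61 and 0.56, of which that of Tars was called, and in KD morulae 0.03, -0.27, 0.22, -0.42 and -0.32, with 0 called by limma and 0 at an unadjusted p under 0.05. Farsa, Wars2 and Sars, whose KD effects are given above, were among the matched promoters without the letters. A match is a description of the letters and not of binding. These 5 promoters are printed, 5′ to 3′ on the strand of the gene, because they carry the letters of the ATF4 element, which stand in capitals: Aars at chr8:111033592-111033891 (plus strand), Gars at chr6:55037751-55038050 (plus strand), Iars at chr13:49681880-49682179 (plus strand), Tars at chr15:11399609-11399908 (minus strand), Yars at chr4:129189653-129189952 (plus strand).
Aars: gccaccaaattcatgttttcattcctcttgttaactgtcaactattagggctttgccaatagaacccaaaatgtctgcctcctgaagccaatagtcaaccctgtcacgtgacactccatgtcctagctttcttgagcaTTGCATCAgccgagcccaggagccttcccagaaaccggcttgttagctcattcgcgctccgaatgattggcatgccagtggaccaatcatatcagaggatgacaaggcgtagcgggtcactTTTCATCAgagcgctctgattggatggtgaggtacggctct
Gars: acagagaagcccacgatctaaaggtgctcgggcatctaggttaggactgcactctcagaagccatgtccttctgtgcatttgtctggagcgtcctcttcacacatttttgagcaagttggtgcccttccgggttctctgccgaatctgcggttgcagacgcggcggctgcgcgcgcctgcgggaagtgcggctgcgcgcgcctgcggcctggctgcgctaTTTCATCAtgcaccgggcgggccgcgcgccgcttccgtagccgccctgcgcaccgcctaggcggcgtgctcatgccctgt
Iars: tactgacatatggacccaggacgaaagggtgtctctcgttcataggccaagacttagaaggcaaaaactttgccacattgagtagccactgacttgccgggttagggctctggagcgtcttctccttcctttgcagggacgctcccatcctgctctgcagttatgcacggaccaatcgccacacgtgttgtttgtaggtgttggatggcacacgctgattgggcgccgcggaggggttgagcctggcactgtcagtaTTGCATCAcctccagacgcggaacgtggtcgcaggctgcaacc
Tars: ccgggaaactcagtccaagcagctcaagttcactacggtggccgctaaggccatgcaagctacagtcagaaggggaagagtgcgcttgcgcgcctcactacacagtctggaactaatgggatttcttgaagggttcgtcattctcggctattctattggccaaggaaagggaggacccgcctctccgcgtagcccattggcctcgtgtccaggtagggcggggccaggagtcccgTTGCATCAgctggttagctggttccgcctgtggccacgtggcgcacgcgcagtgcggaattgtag
Yars: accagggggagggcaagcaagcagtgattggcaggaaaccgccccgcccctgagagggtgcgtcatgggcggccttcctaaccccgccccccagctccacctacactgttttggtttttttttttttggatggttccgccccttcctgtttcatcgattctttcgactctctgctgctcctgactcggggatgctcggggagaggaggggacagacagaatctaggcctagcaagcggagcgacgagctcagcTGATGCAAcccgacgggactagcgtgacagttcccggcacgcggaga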

How the data were processed

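For the 22 libraries, aligned to mm10, the authors listed STAR, StringTie 2.1.4 and featureCounts 1.6.2, with DESeq2 1.30.1 for their own tests, and FPKM per gene were deposited. Whole read counts could not be recovered from these values, so the depth and the counting error per library were unknown. The members and lists were chosen with earlier results of these data known.

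FPKM were scaled between the libraries of a fit by the median of ratios and analysed as log2(FPKM + 1) with limma 3.58.1 (trend on the mean) in R 4.3.3. The FPKM printed are those before this scaling, and groups that lie close can separate or overlap otherwise after it. Genes with an FPKM of 1 or more in 3 or more libraries of the fit were tested. P-values were adjusted over all of these by Benjamini-Hochberg, with calls at an adjusted p under 0.05. The code was tested on simulated data. Python 3.11.15, pandas 2.3.3, numpy 2.4.6 and matplotlib 3.10.9 were used for promoters, positions and figures.

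Genes were named by rule: H2afz, called members with the largest changes (up to 8 per direction for the KD, 4 for control stages and 6 for the interaction), and genes of the lists: stage, oocyte and cumulus markers, partners of tRNA charging, tRNA maturation, selenocysteine charging, elongation factors, the stress response, and genes that start near members. Alternatives were a pseudocount of 0.1, no filter, FPKM as deposited, equal FPKM totals (TPM), 1 fit over all libraries, replicate numbers as a block or batch, and leaving out each library. Chromatin profiles and proteins were not analysed here.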

Additional observations from a re-analysis of the deposited data

Results flagged for a closer look

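In 7 of 148 groups of 4 libraries (36 synthetase genes and H2afz, 4 groups each) 1 library lay far from the other 3 of its group, with the gap to its neighbour taking most of the range of the 4 values. The limit on that share was the tabulated one of Dixon's test for 4 values, by which chance alone would pick out about 1 in 20 groups, or 7.4 of these 148. In KD blastocysts these were Eprs (19.1, 19.6, 20.9 and 37.8 FPKM in rising order, share 0.903), Mars (27.5, 28.0, 31.1 and 55.2 FPKM, share 0.87) and Qars (22.2, 23.5, 26.7 and 52.0 FPKM, share 0.849). The high library was KD replicate 6 for Eprs and 5 for Mars and Qars. In control blastocysts they were Lars2 (3.30, 5.01, 6.59 and 40.1 FPKM, share 0.91) and Rars2 (57.7, 58.1, 58.1 and 65.3 FPKM, share 0.949). In control morulae they were Nars, for cytosolic asparagine (70.7, 71.5, 73.0 and 88.8 FPKM, share 0.877), and Wars2, where the lone library was low (12.5, 15.1, 15.4 and 15.6 FPKM, share 0.834).

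A difference in KD effect between morulae and blastocysts was called in 3 of 34 tested members, all higher, against 5.43% higher and 6.32% lower of all genes. It was 1.6159 for Farsa, 1.1625 for Sars and 0.99219 for Tars on the log2 scale, with the effect in blastocysts the higher in each. With 1 library left out, Sars was not called in 9 of 15 fits and Tars in 7 of 15. Without the filter on low values neither Sars nor Tars was called.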

How the results depend on the processing

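Called members named by rule kept their call in 177 of 197 fits of the other settings and in 218 of 270 with 1 library left out, and called genes of the lists, in the KD comparisons of the later stages and the interaction, in 362 of 412 and 427 of 519; 0 reversed. Counts of called members are given here in turn. With no filter on low values, where more genes were tested, members lower in KD morulae numbered 1 in place of 7, those higher in KD blastocysts than in KD morulae 8 in place of 16, and those with a higher interaction 1 in place of 3. Scaled to equal totals, members lower in KD morulae numbered 14, and those with a higher interaction 6. In 1 fit over all libraries, members lower in KD morulae numbered 5, of which 4 were among the 7, members lower in KD blastocysts 5 in place of 3, and those rising from control morulae to control blastocysts 7 in place of 4. With 1 library left out, where fewer samples were fitted, the ranges were 2 to 7 for members lower in KD morulae, 2 to 5 for members higher in KD blastocysts, 3 to 7 for risers in control blastocysts, 8 to 16 for risers and 1 to 2 for fallers in KD blastocysts against KD morulae, and 1 to 7 for the interaction. Apart from the numbers of genes tested and of samples, the cause was not tested.

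Replicate numbers were also fitted as a block. Libraries of the same number correlated at 0.209, 0.0146 and 0.214 in 2-cell embryos, 0.181 and 0.0944 in morulae, and 0.0860, -0.111, 0.354 and 0.00149 in blastocysts, and not every library correlated best with its own number. The numbers were therefore not taken to pair the samples. In morulae libraries with numbers 1 and 2 correlated with each other across the groups at 0.0944 to 0.181, those with 6 to 8 at 0.185 to 0.347, and libraries of the 2 ranges at -0.278 to -0.0945. With the replicate block, 6 members were higher in KD blastocysts (3 without it), 5 rose from KD morulae to KD blastocysts (16 without it), 9 were lower in KD morulae (7 without it, of which 5 were among the 9 and Lars and Qars were not) and 4 had a higher interaction (3 without it). No block could be fitted between control blastocysts and control morulae, which share 1 number. With the range of numbers as a batch, 6 members were higher in KD blastocysts and 9, the 7 included, lower in KD morulae. The cause was not tested.

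Over all genes, KD morulae had 465 higher and 993 lower; the counts were 129 and 283 with no filter, 281 and 1553 as deposited, 240 and 1787 at equal totals, and 777 and 1261 with the batch. In KD blastocysts against KD morulae the block gave 1275 and 913 in place of 2186 and 2073. The interaction had 691 and 804, against 1287 and 468 at equal totals and 398 and 590 with no filter. In 2-cell embryos 1 fit over all libraries gave 15 and 18 in place of 0 and 0. The cause was not tested. Since FPKM are relative, a change in total RNA per embryo cannot be seen.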

Other observations

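Around the synthetases, 3 further groups of genes were followed. Of the genes that process, export or proofread tRNA, 0 of 20 tested were higher and 3 lower in KD morulae, against 4.23% and 9.04% of all genes, and 3 of 21 were higher and 5 lower in KD blastocysts, against 16.7% and 19.8% (limma; at an unadjusted p under 0.05, 1 was higher in morulae). Rpp40, a subunit of RNase P, stood at 11.1, 12.7, 12.1 and 12.1 FPKM in control morulae and 6.09, 5.90 and 6.62 FPKM in KD morulae, and at 18.6, 15.4, 16.4 and 16.8 FPKM in control blastocysts and 7.12, 7.02, 6.12 and 8.09 FPKM in KD blastocysts. No KD library reached a control library of its stage. It fell by 0.74 and 1.13 (limma adjusted p = 0.0151 and 0.000510), and Pop7 of the same enzyme fell by 0.71 and 0.57 (0.0146 and 0.0105), while its largest protein, Pop1, rose by 0.67 in blastocysts (limma adjusted p = 0.0101). Both calls in morulae were lost without KD replicate 1 or 2 (adjusted p up to 0.0647), and that of Pop7 also without the filter (0.0539).

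Dtd1, which removes D-amino acids from tRNA, stood at 17.1, 20.4, 15.5 and 15.4 FPKM in control blastocysts and 8.68, 7.26, 4.47 and 7.84 FPKM in KD blastocysts. All 4 KD libraries were below all 4 control libraries. It fell by 1.18 (limma adjusted p = 0.00184), a call kept with each library left out. The 6 genes of selenocysteine charging and the 5 cytosolic elongation factors had 0 and 0 higher and 1 and 0 lower in KD morulae, and 0 and 2 higher and 1 and 0 lower in KD blastocysts, against 4.23% and 9.04% of all genes in morulae and 16.7% and 19.8% in blastocysts. At an unadjusted p under 0.05, limma had 0 and 0 higher in KD morulae, 1 selenocysteine gene higher in KD blastocysts, and 0 elongation factors lower in KD morulae or blastocysts. Sephs2, which makes selenophosphate, fell by 0.52 and 0.54 (limma adjusted p = 0.0350 and 0.0229); its call in morulae was lost without any 1 library other than control replicate 1 (adjusted p up to 0.143) or without the filter (0.0517) or in 1 fit over all libraries (0.0597), and that in blastocysts without control replicate 4 or KD replicate 6 (adjusted p up to 0.0752) or at equal totals (0.0811). The elongation factor gene Eef2 stood at 27.2, 52.2, 62.5 and 52.1 FPKM in control and 104, 61.0, 171 and 87.4 FPKM in KD blastocysts. Its FPKM overlapped between the groups, though not after the scaling used in the fit, and it rose by 1.08 (limma adjusted p = 0.00767). Eef1d rose by 0.69 (limma adjusted p = 0.0204) with overlapping groups. The call of Eef1d was lost without control replicate 1 or KD replicate 1 or 4 (adjusted p up to 0.0533). Without the filter neither was called (0.0605 and 0.0827).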
